A study of Mus musculus with 41 samples.

Results

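Oxidative phosphorylation genes encoded in the nucleus were followed in the tibial bone of 41 mice. The members were the protein-coding genes of the count table whose symbols name subunits of complexes I to V. There were 84 such genes among 43346 in the table, namely 37 for complex I (Nduf), 4 for complex II (Sdh), 8 for complex III (Uqcr), 18 for complex IV (Cox4 to Cox8) and 17 for complex V (Atp5). The complex was taken from the symbol alone, so Ndufa4, now regarded as a subunit of complex IV, stands with complex I, and Atp5s and Atp5sl, which are not subunits of the synthase, stand with complex V. Of the 84 members, 82 passed the filter on low counts, while the testis isoform Cox7b2 reached at most 4 reads and Cox8c at most 1 read in any mouse and were not tested.

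The groups were young mice (n = 12, 6 to 12 months by the labels), old mice given vehicle (old + vehicle-treated, n = 13) or AP20187 (old + AP-treated, n = 16). The old mice were injected from 20 months of age for 4 months, those given AP20187 at 10 mg per kg. The labels give the young mice as vehicle too. All groups carried the INK-ATTAC transgene on a C57BL/6 background, in which a fragment of the p16Ink4a promoter drives a caspase that the dimerizer AP20187 activates, so that the drug removes cells in which that promoter is active. The labels call the tissue bone, and it was the shaft of the tibia, spun to remove marrow.

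The respiratory chain passes electrons from NADH (complex I) and succinate (complex II) through complex III to oxygen at complex IV, and the proton gradient so built drives ATP synthase (complex V). Most subunits are nuclear genes, and a small core is encoded by mitochondrial DNA. Skeletal muscle is rich in mitochondria and uses its own isoforms of some complex IV subunits, whereas bone-forming cells are known to draw much of their ATP from glycolysis. The 37 genes on mitochondrial DNA, 13 of them protein-coding, were listed at 0 counts in all 41 mice, so the chain was followed through its nuclear part only.

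Complex IV holds pairs of genes that code for the same subunit, one used in striated muscle and the other elsewhere. The stretches of 250 bases before the start of 4 such genes are shown because these genes stood at opposite ends of the relation to muscle transcripts described below. They are from RefSeq on GRCm38.p6, read 5′ to 3′ in the direction of the gene, with capitals marking a match to any of the motifs searched. Cox8b and Cox7a1 are the muscle isoforms, at chr7:140900447-140900696 (minus strand) and chr7:30183921-30184170 (plus strand). Cox8a and Cox6a1 are isoforms used in other tissues, at chr19:7217617-7217866 and chr5:115348959-115349208, both on the minus strand.
Cox8b: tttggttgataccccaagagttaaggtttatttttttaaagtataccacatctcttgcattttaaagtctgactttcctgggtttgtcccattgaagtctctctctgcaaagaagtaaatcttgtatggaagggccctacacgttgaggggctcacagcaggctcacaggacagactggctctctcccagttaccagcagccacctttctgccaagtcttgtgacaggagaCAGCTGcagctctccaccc
Cox7a1: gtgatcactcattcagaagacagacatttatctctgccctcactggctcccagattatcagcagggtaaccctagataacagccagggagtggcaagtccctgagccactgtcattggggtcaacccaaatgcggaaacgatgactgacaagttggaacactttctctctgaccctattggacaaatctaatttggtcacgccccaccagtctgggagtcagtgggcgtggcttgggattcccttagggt
Cox8a: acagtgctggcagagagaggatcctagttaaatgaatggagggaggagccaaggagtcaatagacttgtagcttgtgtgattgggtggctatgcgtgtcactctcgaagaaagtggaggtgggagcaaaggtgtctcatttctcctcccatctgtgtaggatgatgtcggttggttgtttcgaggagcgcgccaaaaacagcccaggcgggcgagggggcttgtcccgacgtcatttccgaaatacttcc
Cox6a1: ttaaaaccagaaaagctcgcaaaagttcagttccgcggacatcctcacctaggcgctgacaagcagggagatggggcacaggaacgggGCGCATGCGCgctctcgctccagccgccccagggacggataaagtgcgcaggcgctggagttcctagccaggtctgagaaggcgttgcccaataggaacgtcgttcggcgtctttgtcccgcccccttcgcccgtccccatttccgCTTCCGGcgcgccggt
The capitals in Cox8b are an E-box (CAGCTG), and those in Cox6a1 are an NRF1 core (GCGCATGCG), read on both strands with the matches overlapping, and a GABPA/ETS core (CCGGAAG, found on the opposite strand). No match was found in Cox7a1 or Cox8a.

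Motifs were searched on both strands, and promoters of 69 of the 84 members were used, in 75 windows. The NRF1 core was present in 8% of the members' windows and in 1.45% of the 32851 windows of all genes. The GABPA/ETS core was present in 16% and 6.91%, and the ESRRA site (AAGGTCA) in 6.67% and 4.08%. The YY1 core (AAGATGG) was present in 2.67% and 4.49%, and the E-box in 8% and 13%. The MEF2 core (CTAAAAATA) was found in none of the members' windows and in 0.469% of all. These matches describe letters in a window and are no evidence of binding.

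The libraries held 37028959 to 75942717 counts (median 47774880), and mice of 1 group differed by more than sampling noise. Cdkn2a, which codes for p16Ink4a, was at 0.596 ± 0.307 CPM (read counts scaled to library size, mean ± SD) in the young, 2.78 ± 2.02 in the old + vehicle-treated and 1.75 ± 1.70 in the old + AP-treated mice. Muscle transcripts were a part of each library. The summed CPM of 16 contractile genes ran from 19986 to 113091 in the young, from 18826 to 146341 in the old + vehicle-treated and from 9713 to 110904 in the old + AP-treated mice. Fewer cells of a type and less RNA per cell cannot be told apart in bulk samples.

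The members together took 0.791% to 2.72% of the counts of a library. Their summed CPM was 9963 at the lowest, 16556 at the median and 29760 at the highest in the young mice. It was 11160, 18117 and 26274 in the old + vehicle-treated mice and 7160, 15102 and 27856 in the old + AP-treated mice. The ranges of the 3 groups overlapped almost entirely. Levels were also taken per kilobase of the gene length given with the counts. In the young mice the highest were the muscle isoform Cox8b at 731 CPM per kb, Ndufa4 at 705, Cox6b1 at 696, the muscle isoform Cox6a2 at 690 and the muscle isoform Cox7a1 at 457. The lowest of those tested were Cox4i2 at 5.49, Atp5s at 6.56 and Ndufa4l2 at 7.40 CPM per kb. By this measure 3 of the 5 most abundant members were isoforms of striated muscle. By mean CPM alone the highest in the young were Atp5b (1517), Atp5a1 (1222), Sdha (508), Cox4i1 (492) and the muscle isoform Cox6a2 (454).

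Muscle content was expressed as a muscle score, the mean z-score of log2 CPM over the 16 contractile genes. It averaged -0.15 ± 0.88 in the young, 0.36 ± 0.89 in the old + vehicle-treated and -0.18 ± 0.996 in the old + AP-treated mice. The lowest was -2.60 in old + AP-treated mouse 19 and the highest 1.56 in old + vehicle-treated mouse 20. The old + vehicle-treated mice were 0.52 above the young (two-sided permutation test, adjusted p = 0.237) and the old + AP-treated mice 0.54 below the old + vehicle-treated (adjusted p = 0.237). The old + AP-treated and young mice differed by -0.03 (adjusted p = 0.948). No difference in muscle score passed the test, and the spread within each group was larger than the differences between groups.

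**Figure D1:**
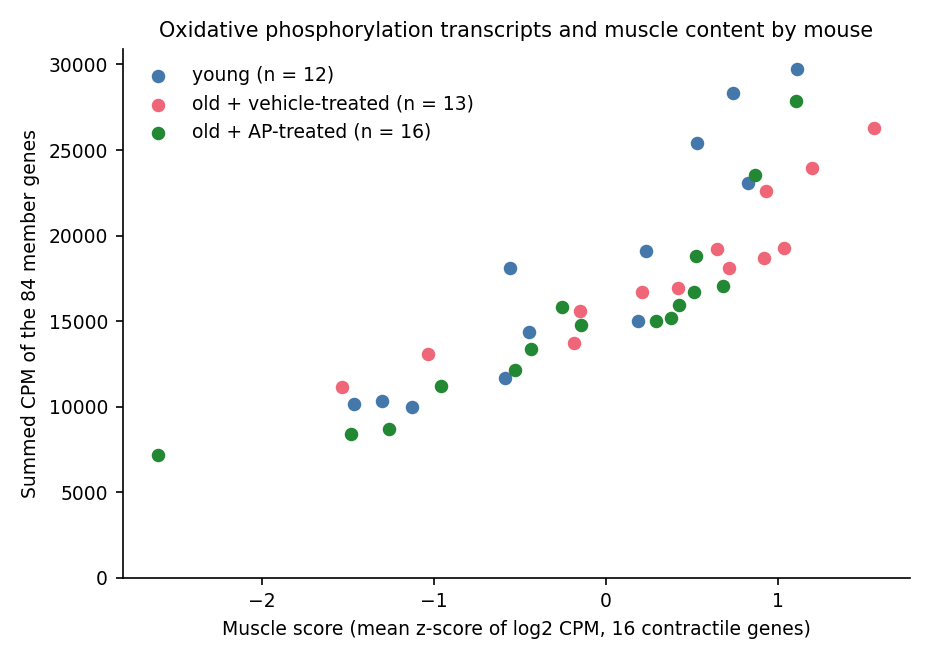
Summed CPM of the 84 members against the muscle score (mean z-score of log2 CPM of 16 contractile genes), 1 point per mouse, coloured by group. The summed CPM climbs with the score in each group, from 7160 CPM in the old + AP-treated mouse with the lowest score (-2.60).

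The members moved with the muscle score from mouse to mouse. In a model of the groups and the score, 77 of 82 members rose with the score at an adjusted p under 0.05 (edgeR's quasi-likelihood test), against 28.1% of all 19292 genes, and 3 fell, against 31.7%. The median slope was 0.48 on the log2 scale per unit of score, compared with -0.03 over all genes and 0.94 over the contractile genes themselves. By complex the counts with a positive slope were 36 of 37 for complex I, 4 of 4 for complex II, 8 of 8 for complex III, 12 of 16 for complex IV and 17 of 17 for complex V.

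The steepest slopes belonged to the muscle isoforms Cox7a1 (0.90 ± 0.07, SE), Cox6a2 (0.86 ± 0.07) and Cox8b (0.85 ± 0.06). After these came the c-ring gene Atp5g1 at 0.64 and the iron-sulfur subunit Sdhb at 0.62. The 3 members that fell with the score were the testis isoform Cox6b2 (-0.37 ± 0.06) and the non-muscle isoforms Cox6a1 (-0.19 ± 0.05) and Cox8a (-0.11 ± 0.04, adjusted p = 0.022). Cox7a2, also a non-muscle isoform, rose (0.35 ± 0.04). Cox4i2, the isoform known from lung and from response to low oxygen, had a slope of -0.002 ± 0.07 (adjusted p = 0.98). Ndufa4l2, a paralogue of Ndufa4 induced by low oxygen, had a slope of -0.16 ± 0.08 (adjusted p = 0.078). A test of whether slopes differed between the 3 groups called 0 members by edgeR's quasi-likelihood test, against 1 of all genes. At an unadjusted p under 0.05 there were 57 of 82 members, against 2678 of all 19292 genes. The fitted slope was lower in old + vehicle-treated than in young mice for all members but Cox6b2 (0.19) and Atp5sl (0.004). The difference was -0.36 for Atp5g3 and -0.38 for Ndufa5, while the model used below holds 1 slope for all groups.

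**Figure D2:**
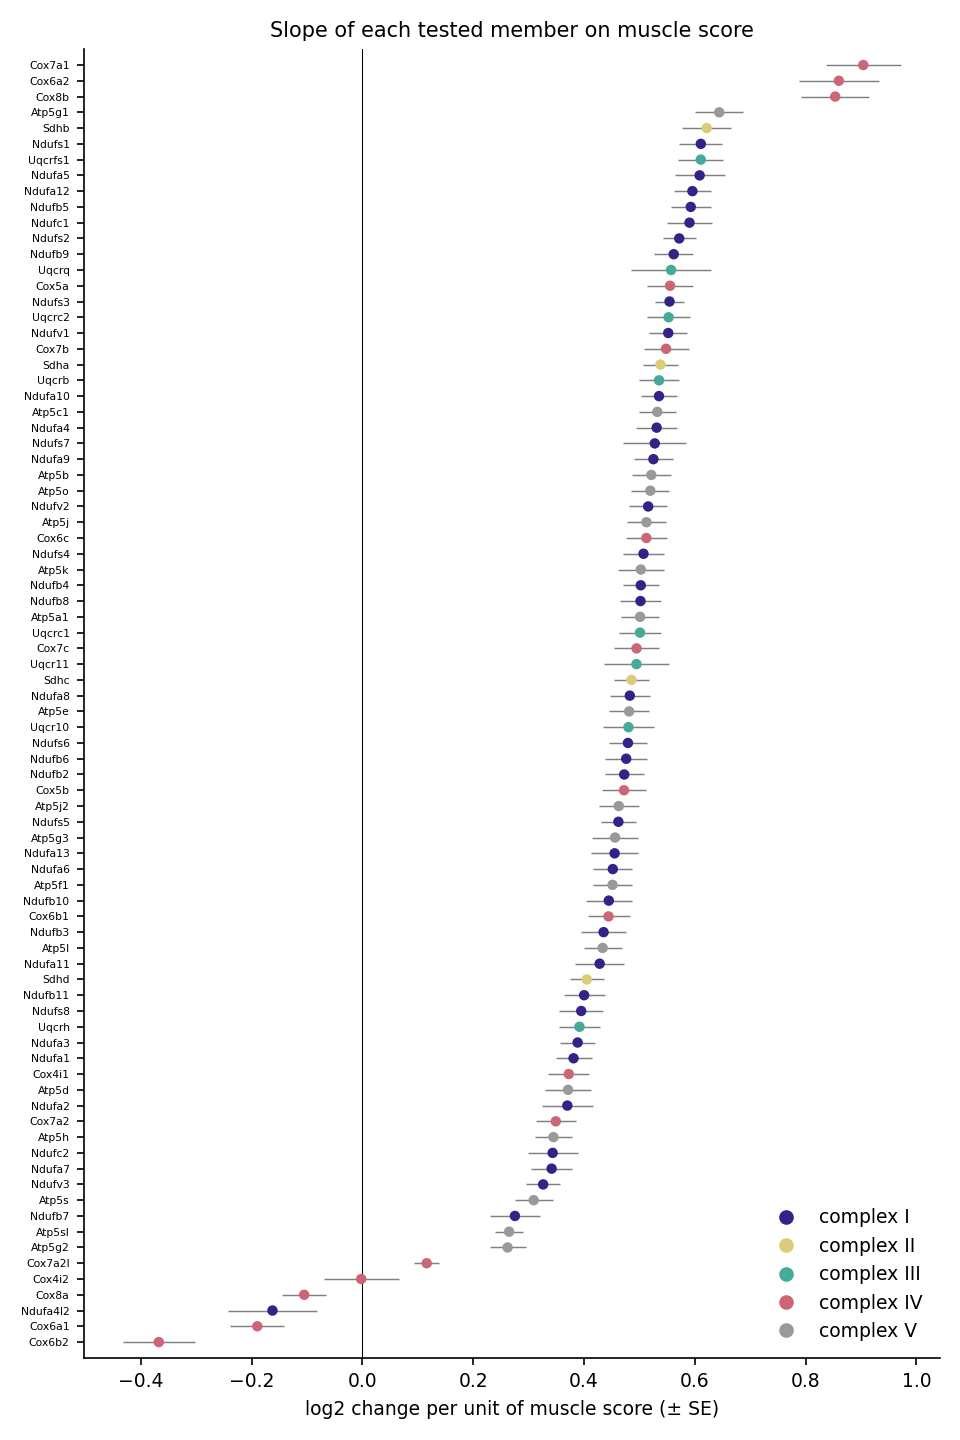
Slope of each of the 82 tested members on the muscle score (log2 change per unit of score, bars: SE), coloured by complex. Cox7a1, Cox6a2 and Cox8b lie apart at 0.85 to 0.90, most others between 0.26 and 0.64, and Cox6b2, Cox6a1 and Cox8a lie below 0 with their test passed.

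The young and the old + vehicle-treated mice were compared to see how age moved these genes. Without the muscle score, 1 of 82 members was called (log2 fold change beyond 0.5 with an adjusted p under 0.05), against 9.06% of all genes. When the adjusted p alone was used, 0 members were lower (9.8% of all genes were) and 1 was higher (9.56%). At an unadjusted p under 0.05, 4.88% of members passed in edgeR's test, against 31.8% of all genes, and DESeq2 gave 0 lower and 2 higher at its adjusted p. The median over the members was -0.08, compared with 0.01 over all genes. It ran from -0.12 to 0.01 with each mouse left out, at 0.01 without young mouse 40 and -0.004 without young mouse 37.

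The member called was Cox4i2, at chr2:152754173-152765037. Its CPM was 2.82 at the lowest, 4.61 at the median and 5.46 at the highest in the young, 4.19, 7.16 and 11.04 in the old + vehicle-treated and 3.71, 6.02 and 9.87 in the old + AP-treated mice. The young median was exceeded by 11 of 13 old + vehicle-treated and 15 of 16 old + AP-treated mice, and the ranges overlapped. The log2 fold change was 0.67 ± 0.15 (SE, edgeR adjusted p = 0.00114) in the old + vehicle-treated mice and 0.58 ± 0.14 (adjusted p = 0.00397) in the old + AP-treated mice, both against the same young mice. With the muscle score taken in, it was 0.67 and 0.58 again. With an erythroid score added to the muscle score it was 0.49 and 0.42 (adjusted p = 0.0101 and 0.0151), below the fold limit. With a neutrophil score added it was 0.93 and 0.81, and with an osteoblast score 0.88 and 0.95. Of the 9 erythroid genes, 3 were called lower in old + vehicle-treated and 2 in old + AP-treated mice than in the young. Of all genes, 9.06% and 8.58% were called in either direction. Their summed CPM was 5546 to 22313 in the young, 2041 to 11868 in the old + vehicle-treated and 2520 to 19091 in the old + AP-treated mice, and their part in the result was not tested further.

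Without the score, the members with the largest differences in each complex were, in complex I, Ndufb2 (-0.27) and Ndufa4l2 (0.25), in complex II, Sdhd (-0.08) and Sdhc (0.44), in complex III, Uqcrb (-0.23) and Uqcrc1 (0.43), in complex IV, the testis isoform Cox6b2 (-0.40) besides Cox4i2, and in complex V, Atp5k (-0.23) and Atp5d (0.44). Of these, Cox4i2 alone passed the test.

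With the muscle score in the model, the age comparison turned to lower values. Now 46 of 82 members were lower in the old + vehicle-treated mice by the adjusted p alone (13% of all genes were) and 3 were higher (14.3%). The count lower became 25 with a B cell score and 22 with a brown adipocyte score added. The median was -0.25, with 74 of 82 members below 0. It was -0.22 with a slope by group and -0.46 with Acta1 as the covariate in place of the score. With the fold limit, 1 member was higher and 2 were lower, against 9.19% of all genes called. The members that fell were 22 of 37 in complex I, 2 of 4 in complex II, 4 of 8 in complex III, 8 of 16 in complex IV and 10 of 17 in complex V. Ndufa4l2, the highest of complex I at 0.32, did not pass (adjusted p = 0.228). Those that rose were Cox4i2, Sdhc of complex II (0.23 ± 0.07, adjusted p = 0.0191) and Atp5d, a subunit of the ATP synthase F1 part (0.28 ± 0.10, adjusted p = 0.030). Neither Sdhc nor Atp5d passed with a slow fibre score added (adjusted p = 0.112 and 0.118) or with Acta1 as the covariate (0.906 and 0.492), and Atp5d did not pass with a B cell (0.0788) or a brown adipocyte score added (0.113). With each mouse left out, Sdhc passed in 25 of 25 fits and Atp5d in 19 of 25, missing without old + vehicle-treated mouse 6 or 7 or young mouse 35, 36, 38 or 39. The muscle score itself was higher in the old + vehicle-treated mice, by an amount that did not pass its own test, and the adjusted values therefore rest on the slope.

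The 2 called lower were muscle isoforms. Cox8b was at 95.9, 232 and 508 CPM (lowest, median and highest) in the young, 79.5, 219 and 336 in the old + vehicle-treated and 21.4, 165 and 403 in the old + AP-treated mice. The medians were close in the first 2 groups, which overlapped over most of their range. With the score, Cox8b had a log2 fold change against the young of -0.59 ± 0.13 (adjusted p = 0.00085) in old + vehicle-treated and of -0.71 ± 0.12 (adjusted p = 4.73e-05) in old + AP-treated mice. Cox7a1 was at 56.8, 147 and 325 CPM in the young, 39.8, 137 and 216 in the old + vehicle-treated and 15.7, 115 and 260 in the old + AP-treated mice. The highest values were again in the young. Its log2 fold change with the score was -0.57 ± 0.14 (adjusted p = 0.00269) and -0.58 ± 0.13 (adjusted p = 0.00137), respectively. In the old + vehicle-treated mice both lost the fold limit with an osteoblast score added, where Cox8b was at -0.499 (adjusted p = 0.00430) and Cox7a1 at -0.45 (adjusted p = 0.0176). In the old + AP-treated mice Cox7a1 was at -0.38 (adjusted p = 0.0877) with that score and -0.46 (adjusted p = 0.0163) with a B cell score.

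Within complex I, the accessory subunits Ndufb2 (-0.47 ± 0.08), Ndufb4 (-0.46 ± 0.07), Ndufa5 (-0.44) and the Ndufa4 gene (-0.43) fell in the old + vehicle-treated mice with the score in the model. Of the 7 core subunits, which carry the cofactors, 3 fell (Ndufs8, Ndufv2 and Ndufs1) and the median was -0.18, where 13% of all genes were lower. In complex III, the small subunits Uqcrb (-0.44), Uqcrh (-0.35) and Uqcr10 (-0.35) and the core protein Uqcrc2 (-0.26) fell. The core protein Uqcrc1 was at 0.20 (adjusted p = 0.075) and the Rieske subunit Uqcrfs1 at -0.08 (adjusted p = 0.54). In complex II, Sdhb (-0.28) and the membrane anchor Sdhd (-0.24) fell, the anchor Sdhc rose, and the flavoprotein Sdha was at 0.03 (adjusted p = 0.776).

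In complex V, the parts of the enzyme differed in their counts. Atp5k had the lowest value (-0.40 ± 0.09, adjusted p = 0.00142). All 4 peripheral stalk genes (Atp5f1, Atp5h, Atp5j and Atp5o) and all 3 genes of its membrane part (Atp5j2, Atp5k and Atp5l) fell, with medians of -0.28 and -0.36. In the same fit 13% of all genes were lower by the adjusted p alone. Of the 5 genes of the F1 part, 2 fell (Atp5c1 and Atp5e) and 1 rose (Atp5d), while Atp5a1 (0.05, adjusted p = 0.71) and the catalytic subunit Atp5b (-0.01, adjusted p = 0.965) did not pass. None of the 3 c-ring genes passed by edgeR's test at an adjusted p under 0.05, and 1 did at an unadjusted p under 0.05. No difference between these parts was tested.

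The mean log2 CPM of the tested members of each complex was also taken mouse by mouse. In complex I it was 6.78 ± 0.55 in the young, 6.80 ± 0.31 in the old + vehicle-treated and 6.45 ± 0.49 in the old + AP-treated mice as measured. With the score taken out by each gene's slope it was 6.85 ± 0.23, 6.63 ± 0.14 and 6.53 ± 0.16. The slopes were fitted to these same mice, so the smaller spread within groups after this step was built in. The young mice still spread most, from 6.52 in mouse 35 to 7.17 in mouse 37. With the score taken out, complex III moved from 7.76 ± 0.27 to 7.53 ± 0.17 and 7.42 ± 0.19, complex IV from 7.01 ± 0.23 to 6.79 ± 0.16 and 6.69 ± 0.16, and complex V from 7.76 ± 0.21 to 7.57 ± 0.14 and 7.53 ± 0.15. By contrast, complex II stood at 8.07 ± 0.20, 8.01 ± 0.18 and 8.05 ± 0.16. These means are a description, and the groups overlapped in each complex.

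**Figure D3:**
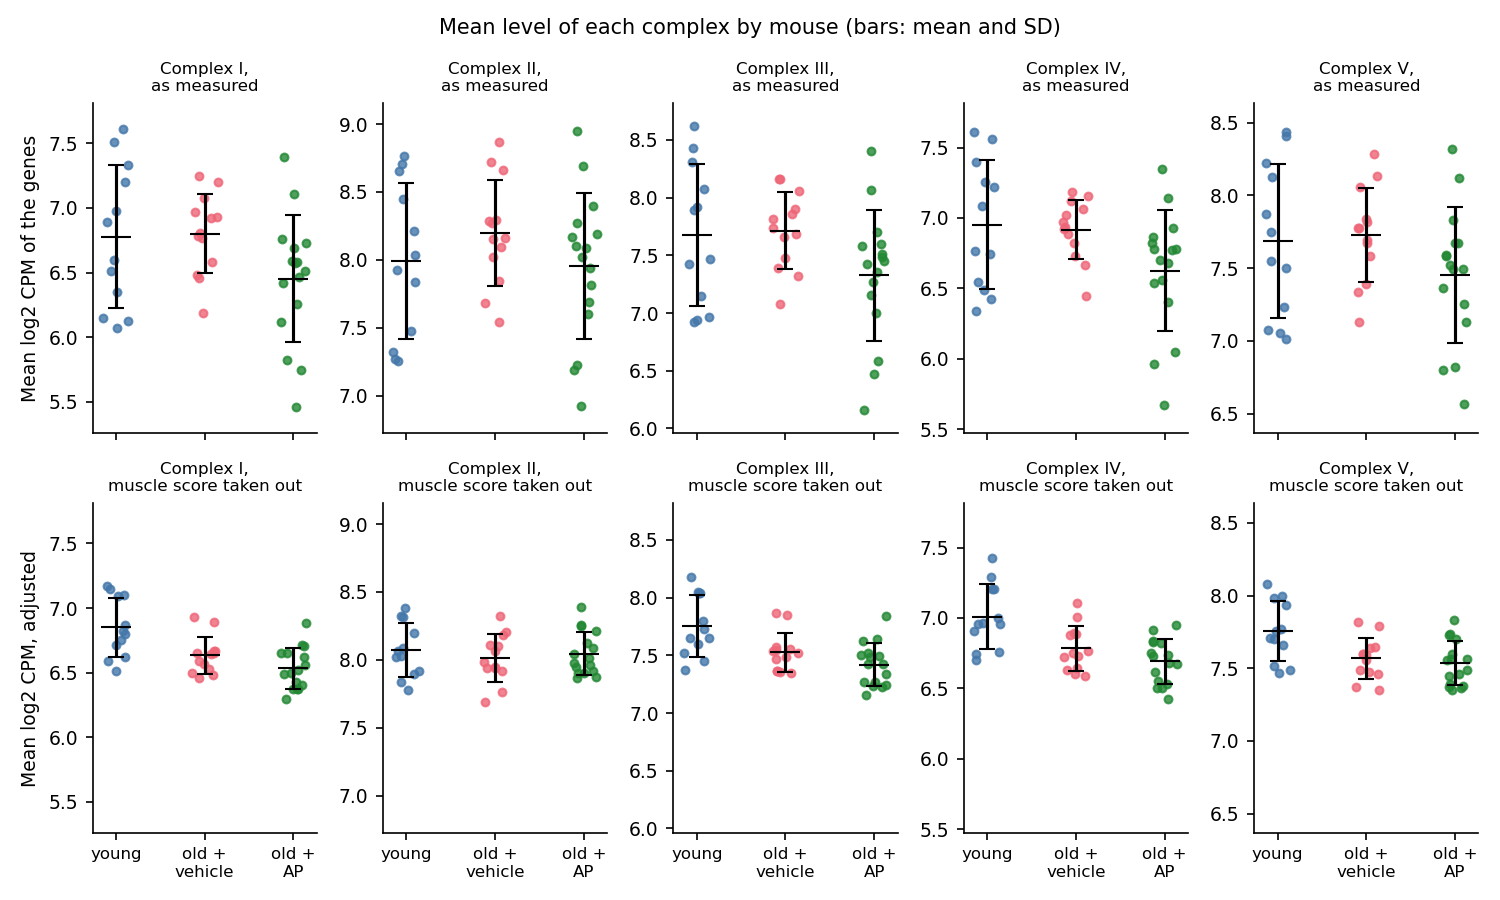
Mean log2 CPM of the tested members of complexes I to V in each mouse, as measured (top) and with the muscle score taken out (bottom), with group means and SD. After the score is taken out the points draw closer, which fitting the slopes to these mice builds in. The young mean of complex I lies at 6.85 above 6.63 and 6.53 in the old groups, and complex II stays near 8.07, 8.01 and 8.05.

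The old + AP-treated mice were compared with the old + vehicle-treated mice to see whether clearance by the drug moved these genes. Without the score, 0 of 82 members were called, against 0.0726% of all genes, and 0 were lower by the adjusted p alone, against 0.104%. At an unadjusted p under 0.05, 24 of 82 members (29.3%) passed in edgeR's test, against 23.9% of all genes. DESeq2 gave 1 member lower by the adjusted p alone, against 2.19% of all genes. The median was -0.27, compared with -0.004 over all genes, and 80 of 82 members lay below 0. The largest differences were -0.65 for Cox6a2, -0.64 for Uqcrq, -0.51 for Ndufs7, -0.42 for Atp5d and -0.32 for Sdhb, and 0.42 for Cox6b2 and 0.18 for Ndufa4l2, none of which passed. The count depended most on old + AP-treated mouse 9, which had the highest score and summed members of its group. Without it 12 members were lower by the adjusted p alone, against 3.41% of all genes. There were 2 without old + vehicle-treated mouse 2 (2.37% of all genes) and 1 without old + AP-treated mouse 10 (1.61%).

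With the muscle score in the model, the median moved to -0.06, compared with 0.02 over all genes, and 58 of 82 members lay below 0. Again 0 members were called, against 0.00518% of all genes, which is also the share lower by the adjusted p alone. The unadjusted p was under 0.05 for 20 of 82 members (24.4%) in edgeR's test, against 18.4% of all genes. DESeq2 gave 2 members lower by the adjusted p alone, against 1.31% of all genes. The median turned to 0.01 with a slow fibre score added and to 0.03 with Acta1, a muscle actin, as the covariate in place of the score. It was -0.11 with a slope by group and ran from -0.08 to -0.02 with each mouse left out. Without old + AP-treated mouse 9 the members lower by the adjusted p alone were 6, against 1.38% of all genes. Without old + vehicle-treated mouse 20 they were 3, against 1.5%. The lowest value in each complex was -0.33 for the accessory subunit Ndufa2, -0.06 for Sdhb, -0.44 for Uqcrq, -0.37 for Cox6a2 and -0.26 for Atp5d. The highest was 0.18 for the core subunit Ndufs1, 0.16 for Sdha, 0.15 for Uqcrc2, 0.19 for Cox6b2 and 0.07 for Atp5b.

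The old + AP-treated mice were also set against the young, which served as the reference in the first comparison as well. Without the score, 1 member was higher and 11 were lower with the fold limit, against 8.58% of all genes called. By the adjusted p alone, 18 were lower (8.66% of all genes) and 1, Cox4i2, was higher (9.15%). The median was -0.34, compared with 0.02 over all genes. Of the 18, 13 belonged to complex I, 3 to complex III and 2 to complex IV. The count rested on single mice: it was 31 lower without old + AP-treated mouse 9 (9.07% of all genes) and 4 without young mouse 40 (7.78%), whose summed members were the highest of all mice.

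The 11 called were Uqcrq (-0.84 ± 0.24, adjusted p = 0.0127), Cox7c (-0.64), Uqcr10 (-0.63), Ndufc2 (-0.60), Uqcr11 (-0.58), Ndufa2 (-0.58), Cox5b (-0.57), Ndufb4 (-0.55), Ndufb2 (-0.55), Ndufa11 (-0.51) and Ndufb11 (-0.51). Neither the largest negative value of complex II, -0.37 for Sdhb, nor that of complex V, -0.49 for Atp5k, passed. On the positive side stood Ndufa4l2 (0.43), Sdhc (0.23), Uqcrc1 (0.14) and Atp5a1 (0.05), none of which passed. Uqcrq, of complex III, was at 74.7, 112 and 365 CPM (lowest, median and highest) in the young, 83.5, 124 and 205 in the old + vehicle-treated and 25.05, 83.3 and 220 in the old + AP-treated mice. Of the 16 old + AP-treated mice, 14 stood below the young median. Cox7c, of complex IV, was at 99.1, 178 and 331 CPM in the young, 99.8, 164 and 207 in the old + vehicle-treated and 53.8, 125 and 246 in the old + AP-treated mice. It too was below the young median in 14 of 16 old + AP-treated mice, and ranges overlapped for both genes.

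With the score, 13 members were lower and 1 was higher with the fold limit, against 10.3% of all genes called. By the adjusted p alone 60 of 82 were lower (13.4% of all genes) and 3 were higher (16.9%), with a median of -0.31. The members that fell were 29 of 37 in complex I, 2 of 4 in complex II, 5 of 8 in complex III, 12 of 16 in complex IV and 12 of 17 in complex V. Of the 13 called lower, 5 were in complex I, 3 in complex III and 5 in complex IV. The muscle isoforms Cox6a2 (-0.75 ± 0.15, adjusted p = 0.000235), Cox8b and Cox7a1 were now among them. Sdhc (0.23 ± 0.07, adjusted p = 0.0115) and Sdha (0.19 ± 0.07, adjusted p = 0.0345) of complex II rose besides Cox4i2. Neither passed with Acta1 as the covariate (adjusted p = 0.361 for Sdhc and 0.718 for Sdha) or with an osteoblast score added (0.0596 and 0.233), and Sdha did not pass with a neutrophil score added (0.0751), a slope by group (0.0535) or no filter on low counts (0.0639). With each mouse left out, Sdhc passed in 28 of 28 fits and Sdha in 20 of 28, missing without old + AP-treated mouse 9, 19 or 26 or young mouse 33, 35, 38, 39 or 41. All 7 peripheral stalk and membrane part genes of complex V fell again, while Atp5a1 (0.07), Atp5b (0.07) and Atp5d (0.01) did not pass. The lowest values in complexes I, II and V were -0.59 for Ndufc2, -0.34 for Sdhb and -0.46 for Atp5e. Complex III held the lowest value of all members, at -0.84. Ndufa4l2 was at 0.38 (adjusted p = 0.118). The 3 non-muscle isoforms Cox6a1 (-0.31), Cox7a2 (-0.29) and Cox8a (-0.25) fell too.

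**Figure D4:**
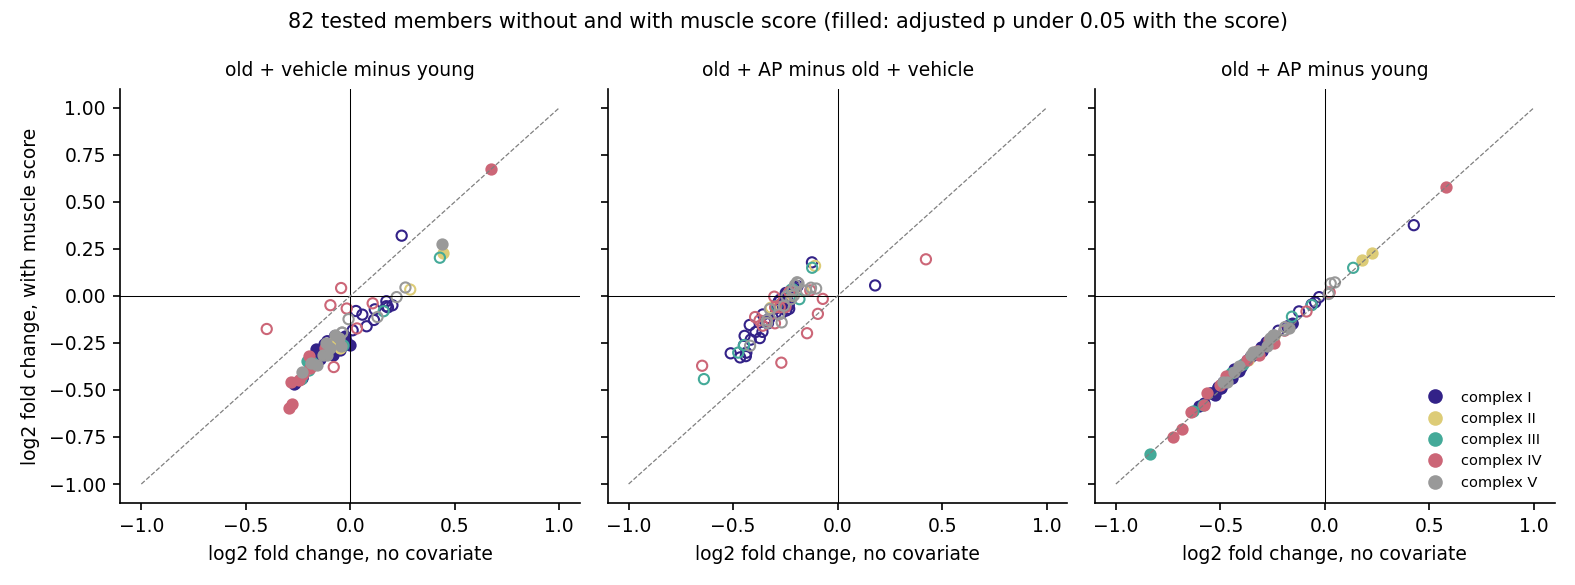
Log2 fold change of the 82 tested members without a covariate (horizontal) and with the muscle score (vertical) in the 3 comparisons, filled where the adjusted p is under 0.05 with the score. Most members lie below the dashed line of equality in the old + vehicle-treated against young panel (medians -0.08 and -0.25), above it between the old groups (-0.27 and -0.06) and on it for old + AP-treated against young (-0.34 and -0.31).

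Marker lists of other cell types were read with the adjusted p and the fold limit, where 9.06% of all genes were called in the old + vehicle-treated and 8.58% in the old + AP-treated mice against the young. Of 9 osteoclast, 7 macrophage and 5 endothelial genes, 0 were called in either comparison by edgeR's test. Of 6 osteocyte genes, 2 were higher and 1 lower in the old + vehicle-treated mice, and 2 were higher and 2 lower in the old + AP-treated mice. Of 8 osteoblast genes, 3 were lower in the old + vehicle-treated and 6 in the old + AP-treated mice than in the young, with medians of their summed CPM of 67201, 39640 and 31094 in the young, the old + vehicle-treated and the old + AP-treated mice. Of 6 B cell genes, 5 were lower in the old + vehicle-treated and 1 in the old + AP-treated mice than in the young, at a median summed CPM of 215, 115 and 152. With a B cell score added to the muscle score, 25 members were lower by the adjusted p alone in the old + vehicle-treated mice, against 7.63% of all genes, and 50 in the old + AP-treated mice, against 10.3%. Cox7a1 was then at -0.41 (adjusted p = 0.0625) in the old + vehicle-treated mice. With an osteoblast score added instead, 44 and 47 members were lower by the adjusted p alone in the old + vehicle-treated and old + AP-treated mice against the young, where 14.1% and 6.36% of all genes were. With a neutrophil score, the counts were 35 and 49, against 13.9% and 8.21% of all genes. Of 8 neutrophil genes, 0 passed in the old + vehicle-treated mice and 2 were higher in the old + AP-treated mice, each against the young (edgeR adjusted p and fold limit). Of 6 slow fibre genes, 3 were higher in the old + vehicle-treated mice than in the young, and with their score added the counts were 57 and 62, against 11.3% and 13.5% of all genes. The medians of the members lay between -0.33 and -0.22 under these 4 additions. Of 8 adipocyte genes, 1 was higher (Plin1) and 1 lower (Adipoq) in the old + vehicle-treated mice and 1 was lower (Adipoq) in the old + AP-treated mice, and with their score added 46 and 60 members were lower, against 12.7% and 13.2% of all genes.

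Markers of brown adipocytes, which are rich in mitochondria, were low in all groups, and their summed level was highest in the young. That level came mostly from Dio2, at a mean of 17.2 CPM in the young, against 9.76 (vehicle) and 11.1 (AP20187) in old mice. In the same order, Cidea averaged 0.873, 0.899 and 0.767 CPM, Elovl3 0.108, 0.111 and 0.110, and Ucp1 0.119, 0.0191 and 0.0533. Thus Cidea and Elovl3 were not highest in the young. Of the 4 genes, Ucp1, the uncoupling protein that defines these cells, was at 0 counts in 19 of 41 mice, and Ucp1 and Elovl3 did not pass the filter on low counts. Of the 2 tested, Dio2 was lower in the old + vehicle-treated mice (-0.82, edgeR adjusted p = 0.00167) and in the old + AP-treated mice (-0.63, adjusted p = 0.0107), and Cidea did not pass (0.05 and -0.19). Their summed CPM was 7.37 to 33.3 in the young (median 17.5), 7.61 to 17.1 in the old + vehicle-treated (median 9.57) and 6.92 to 16.5 in the old + AP-treated mice (median 11.9). Their score averaged 0.42 ± 0.93, -0.16 ± 0.50 and -0.19 ± 0.56, and it was 1.15 to 1.68 in young mice 30, 31, 36, 37 and 40. With this score added to the muscle score, 22 members were lower by the adjusted p alone in the old + vehicle-treated mice against the young, where 11.1% of all genes were, with a median of -0.19. In the old + AP-treated mice against the young there were 52, against 13.6% of all genes, with a median of -0.27. Between the old groups there were 0 in edgeR's test, against 0.00518%. Cox8b and Cox7a1 kept their calls in both comparisons with the young.

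Against the young, members with a short gene length, as given with the counts, had lower medians than those with a long one. That length is not the length of a single transcript. With the score, members of up to 1328 bases had a median of -0.28 in the old + vehicle-treated mice against the young (28 of 41 lower by the adjusted p alone), and longer ones -0.21 (18 of 41). In all genes the medians were -0.02 and 0.01, and 9.09% of the short and 14% of the long genes were lower. Against the young, the old + AP-treated mice had -0.39 (35 of 41) and -0.22 (25 of 41), where 14.4% of the short and 13.2% of the long genes were lower. Between the old groups the medians were close, at -0.06 and -0.05 with the score and -0.27 and -0.27 without it. With a trend on this length taken out of each library, 47 and 55 members were lower in the old + vehicle-treated and old + AP-treated mice, against 11.4% and 13% of all genes.

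Isoform balance was followed through the log2 ratio of read counts within 5 pairs, in 15 comparisons. Cox4i2 over Cox4i1 averaged -6.78 ± 0.54 (SD) in the young, -6.30 ± 0.55 in the old + vehicle-treated and -6.04 ± 0.42 in the old + AP-treated mice. No old + AP-treated mouse was below the young median. The old + AP-treated mice stood 0.74 above the young, which passed (two-sided permutation test, adjusted p = 0.0084), while 0.48 between old + vehicle-treated and young (adjusted p = 0.203) and 0.26 between the old groups (adjusted p = 0.338) did not. Cox4i2 holds few reads, at 5.49 CPM per kb in the young, compared with 317 for Cox4i1.

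The muscle over non-muscle ratios varied widely from mouse to mouse and no difference between groups passed. Cox6a2 over Cox6a1 averaged 2.52 ± 1.004, 2.67 ± 0.83 and 2.07 ± 1.15 in the young, the old + vehicle-treated and the old + AP-treated mice. Cox7a1 over Cox7a2 averaged -0.29 ± 0.50, -0.27 ± 0.45 and -0.60 ± 0.72, and Cox8b over Cox8a 1.87 ± 0.87, 1.81 ± 0.77 and 1.35 ± 1.12. Thus in most mice reads of Cox6a2 and Cox8b outnumbered those of their counterparts. Their adjusted p values ran from 0.338 to 0.891. Ndufa4l2 over Ndufa4 averaged -5.52 ± 0.69, -5.13 ± 0.60 and -4.79 ± 0.996, with an adjusted p of 0.203 or more by the permutation test.

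**Figure D5:**
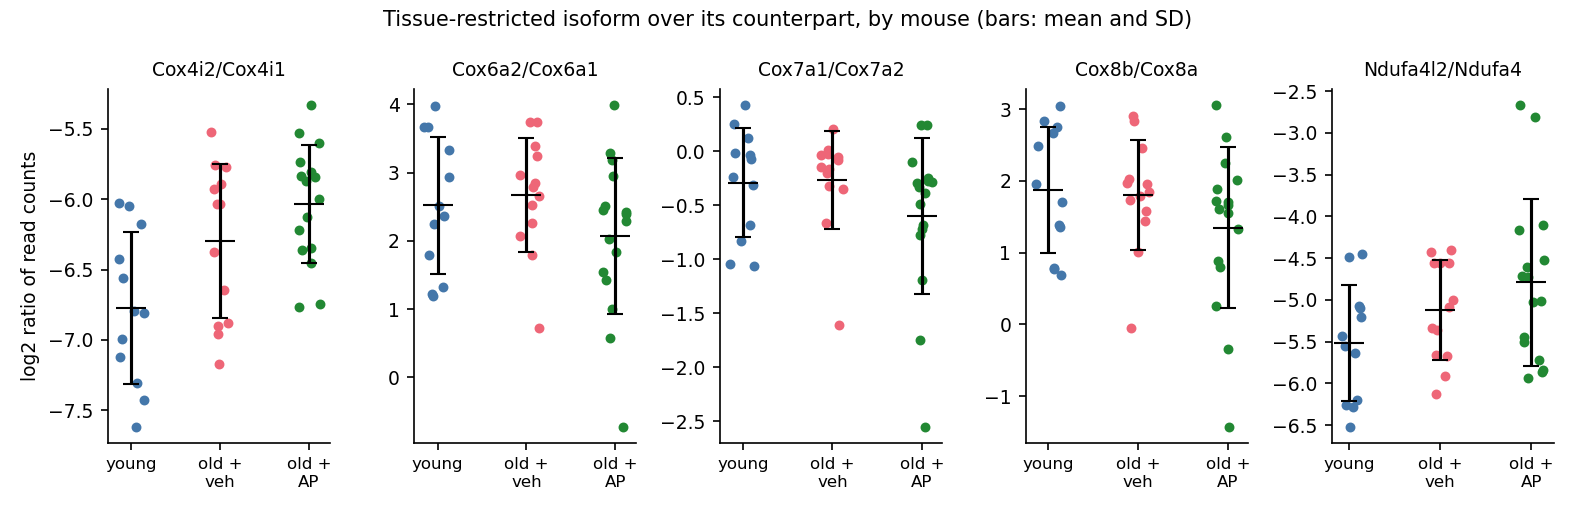
Log2 ratio of read counts of a tissue-restricted gene over its counterpart in each mouse, with group mean and SD. The ratio Cox4i2/Cox4i1 averages -6.78, -6.30 and -6.04 from young to old + AP-treated mice, and the groups overlap in the 3 muscle pairs.

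Other genes of mitochondrial energy metabolism were read in the same fits. Without the score, 0 to 3 genes of each list were higher and 0 lower by the adjusted p alone in old + vehicle-treated mice, where 9.56% of all genes were higher and 9.8% lower. With the score, where 13% of all genes were lower and 14.3% higher, the old + vehicle-treated mice had 10 of 45 assembly factors lower (median -0.07), 10 of 77 genes of the mitochondrial ribosome lower and 3 higher (median -0.08), 7 of 16 of the TCA cycle and pyruvate dehydrogenase lower and 1 higher (median -0.14), and 4 of 7 membrane carriers lower. Of 12 regulators of mitochondrial biogenesis 2 were lower and 1 was higher, and of 6 chain subunits outside the symbol rule 4 were lower. Of 15 beta-oxidation genes 0 were lower and 1 was higher (median 0.002), and of 15 glycolysis genes 1 was lower and 5 were higher (median 0.04). The members themselves had a median of -0.25. The share of the mitochondrial ribosome that was lower was that of all genes. In the old + AP-treated mice against the young, where 13.4% of all genes were lower and 16.9% higher, the assembly factors had 14 of 45 lower and 3 higher, the mitochondrial ribosome 28 of 77 lower and 2 higher, and the TCA cycle and pyruvate dehydrogenase 2 of 16 lower and 2 higher. The membrane carriers had 1 of 7 lower, the biogenesis regulators 1 of 12 and the chain subunits outside the symbol rule 5 of 6, with 0 higher in each. Of the beta-oxidation genes 0 were lower and 2 higher, and of the glycolysis genes 1 was lower and 6 of 15 were higher. The old groups differed in none of these lists at the adjusted p in edgeR's test, with or without the score. At an unadjusted p under 0.05 without the score, where 23.9% of all genes passed, there were 30 of 77 mitochondrial ribosome genes (39%), 12 of 45 assembly factors (26.7%), 4 of 12 biogenesis regulators, 1 of 15 glycolysis genes and 0 in the other lists. With the score, where 18.4% of all genes passed, there were 20 of the mitochondrial ribosome (26%), 12 assembly factors (26.7%), 3 biogenesis regulators, 2 of 15 beta-oxidation genes, 1 of 16 of the TCA cycle and pyruvate dehydrogenase and 0 in the glycolysis, membrane carrier and remaining chain subunit lists.

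A few genes of these lists passed the fold limit too. Ppargc1a, a coactivator that drives mitochondrial biogenesis, averaged 18.03, 13.9 and 12.3 CPM in the young, the old + vehicle-treated and the old + AP-treated mice and had a log2 fold change of -0.77 ± 0.15 with the score in the old + vehicle-treated mice (adjusted p = 0.000226). Usmg5, a small subunit of ATP synthase outside the symbol rule, averaged 111, 87.9 and 75.8 CPM and had log2 fold changes of -0.53 and -0.51 with the score in the old + vehicle-treated and old + AP-treated mice. The complex I assembly factor Ndufaf8, listed as 1810043H04Rik, averaged 9.48, 8.90 and 5.66 CPM and had a log2 fold change of -0.73 ± 0.15 with the score in the old + AP-treated mice (adjusted p = 0.000295). Ckmt2, the creatine kinase of striated muscle mitochondria, had one of -0.55 ± 0.18 with the score in the old + vehicle-treated mice (adjusted p = 0.0229). Without the score, Ogdh of the TCA cycle (0.72 ± 0.20) and Acads of beta-oxidation (0.60 ± 0.16) were higher in the old + vehicle-treated mice. Mrpl52 of the mitochondrial ribosome was lower in the old + AP-treated mice (-0.53 ± 0.14 without the score). Each was tested against the young.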

How the data were processed

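RNA of tibia diaphyses was sequenced in 41 INK-ATTAC mice. The authors aligned reads to GRCm38 and counted them per gene; their processing notes name TopHat2 2.0.6 and HTSeq, and the deposited values are raw read counts per gene. The strand setting and annotation release are not given in the sources used here. The labels list the molecule as genomic DNA, whereas the methods describe RNA.

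Groups came from the age and treatment labels, and each mouse was 1 replicate. Nothing in the labels describes a batch. Counts were normalized by TMM, 19292 of 43346 genes passed edgeR's filter, and 3 groups were fitted in one quasi-likelihood model (edgeR 4.0.16, R 4.3.3) with Benjamini-Hochberg adjustment over all genes tested. A call needed a log2 fold change beyond 0.5 at an adjusted p under 0.05. The muscle score was added as a covariate. Log2 CPM used a prior count of 2 and isoform ratios a prior count of 1, compared by permutation tests with 100000 resamples (SciPy 1.17.1). DESeq2 1.42.0 was an alternative. The fits were tested on simulated data.

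The members, lists and tests were chosen with earlier results of these data known. The plan was to name the largest positive and negative member of each complex, called members (the 10 largest where more), the isoform pairs and the largest called gene of each list. The SE and adjusted p are printed for only a part of these, and some called members are not named.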

Additional observations from a re-analysis of the deposited data

How the results depend on the processing

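Counts below are members of 82, first with the fold limit (called) and then by the adjusted p alone. No setting turned the direction of a member called with the fold limit. In old + vehicle-treated against young, 1 was called, and leaving out each mouse gave 1 to 2. By the adjusted p alone the count of 1 became 2 with DESeq2, with DESeq2 size factors in edgeR, with models of 2 groups and with the length trend removed, and was 1 to 2 with each mouse left out. With the muscle score, 3 were called there. This became 10 with the slow fibre score added, 33 with Acta1 as the covariate, 1 with the osteoblast score added and 49 with no fold-change threshold, and leaving out each mouse gave 3 to 6, the highest without old + vehicle-treated mouse 6. The lower members by the adjusted p alone ran from 35, without young mouse 37, to 54, without old + vehicle-treated mouse 6. Leaving out old + vehicle-treated mouse 16 gave 41. The total in both directions, 49, became 27 with the B cell score added, 25 of them lower, and 24 with the brown adipocyte score added, 22 of them lower.

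Between the old groups 0 were called, and leaving out each mouse gave 0 to 10, or 0 to 12 by the adjusted p alone, where DESeq2 gave 1. With the score the called count was 0 to 1 with each mouse left out. By the adjusted p alone it was 0 to 6, with 2 by DESeq2, 5 with the neutrophil score added and 3 with a slope by group. The highest counts came without old + AP-treated mouse 9.

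In old + AP-treated against young, 12 were called, 19 without the fold-change threshold and 3 to 25 with each mouse left out. By the adjusted p alone 19 passed, 11 with models of 2 groups and 5 to 32 with each mouse left out. The lowest count was without young mouse 40 and the highest without old + AP-treated mouse 9. With the score, 14 were called, 34 with Acta1 as the covariate, 6 with the osteoblast score added and 63 without the fold-change threshold. The cause of these changes was not tested. The osteoblast, B cell and both adipocyte scores and the length trend were added after seeing the data, as was counting by the adjusted p alone. No paired analysis was possible because the mice carry no replicate numbers that the groups share. The 3 members higher by the adjusted p with the score became 1 with Acta1 as the covariate in both comparisons with the young, with the slow fibre score in old + vehicle-treated mice and with the osteoblast score in old + AP-treated mice. The median between the old groups with the score, -0.06, turned to 0.01 and 0.03 with the slow fibre score and Acta1. Other totals of members, both directions together, stayed within 1.5 times of the value reported, and the isoform ratios and muscle score differences kept their side of the threshold. Low counts limit Cox4i2 and Cox6b2, whose group means ran from 4.33 to 10.6 CPM.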
